A study of Mus musculus with 2 samples.

Results

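Tfap2a, Tfap2b, Snai1, Snai2, Zeb1, Zeb2 and Ets1 encode transcription factors of the neural crest and of epithelial-to-mesenchymal transition (EMT), the change by which epithelial cells loosen their contacts and migrate. These 7 genes were chosen by symbol, and a gene was said to have a Suz12 peak when a peak overlapped it or lay within 2.5 kb of it. They are 7 of the 21627 protein-coding genes of the RefSeq table used here, and all 7 matched by symbol. Peaks came from a single library of wild-type E14 mouse embryonic stem cells, a widely used line, treated for 72 h with 1 µM all-trans-retinoic acid in serum medium lacking leukemia inhibitory factor. The series' other library is from Suz12[-/-] cells, labelled Suz12-KO, in serum at 0 h, and was not analysed here. The sequencing depth of the library is unknown, since only peaks were used. With 1 library there is no replicate error and no test, and because genotype and time differ together between the libraries their effects cannot be told apart.

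Suz12 is a core subunit of Polycomb Repressive Complex 2, which methylates lysine 27 of histone H3 and is found at CpG-rich starts of developmental genes that are silent or poised. Neural crest cells arise at the border of the neural plate, where the AP-2 factors (Tfap2a and Tfap2b) act early. Snai1, Snai2, Zeb1 and Zeb2, zinc-finger repressors of epithelial genes such as the E-cadherin gene, act as the cells leave the neural tube, and Ets1 acts in the cranial and cardiac crest. In cultured embryonic stem cells retinoic acid drives differentiation largely towards neural fates.

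Suz12 was found at 3 of the 7 genes, against 13.1% of all protein-coding genes (2833 of 21627). Among genes of 0.5 to 2 times a member's length the share was 24.4% for Zeb1, 20.6% for Zeb2, 19.7% for Ets1, 14% for Snai2, 13.5% for Snai1, 10.9% for Tfap2b and 10.5% for Tfap2a. The genes with peaks were Tfap2a, Tfap2b and Zeb1, and those without were Snai1, Snai2, Zeb2 and Ets1. The 3 genes shared 7 peaks, of which Tfap2b had 4, Tfap2a 2 and Zeb1 1. The AP-2 genes held 92.6% of the 19789 bp of member gene body covered by peaks. Both had peaks at the start and again near the far end, while Zeb1 had a single low-scoring peak close to one end.

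The start sequences of 4 genes are shown because they set the marked AP-2 genes beside the unmarked Snai1 and Zeb2. Each is the 250 bases before an annotated start (RefSeq, GRCm38.p6), written 5′ to 3′ on the gene's strand, with CpG dinucleotides, the sites of DNA methylation and the base content that defines CpG islands, in capitals. Snai1 and Zeb2 were added to the display after their values were seen. Of 2 starts listed for Tfap2a the one further upstream is given, and of 4 for Zeb2 the one richest in CpG. These rules differ, and the outermost Zeb2 window is not shown. The windows lie at chr13:40734921-40735170 on the minus strand for Tfap2a, chr1:19211804-19212053 on the plus strand for Tfap2b, chr2:167537945-167538194 on the plus strand for Snai1 and chr2:45110278-45110527 on the minus strand for Zeb2.
Tfap2a: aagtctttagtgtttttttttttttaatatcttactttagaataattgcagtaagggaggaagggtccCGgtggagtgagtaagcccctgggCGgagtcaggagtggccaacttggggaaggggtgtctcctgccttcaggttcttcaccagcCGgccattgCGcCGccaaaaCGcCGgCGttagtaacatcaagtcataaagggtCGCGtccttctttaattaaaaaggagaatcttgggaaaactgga
Tfap2b: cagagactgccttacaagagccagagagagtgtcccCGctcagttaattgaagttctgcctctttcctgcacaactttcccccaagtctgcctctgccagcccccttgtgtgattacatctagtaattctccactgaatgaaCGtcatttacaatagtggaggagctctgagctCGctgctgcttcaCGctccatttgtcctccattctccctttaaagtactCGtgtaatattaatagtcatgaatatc
Snai1: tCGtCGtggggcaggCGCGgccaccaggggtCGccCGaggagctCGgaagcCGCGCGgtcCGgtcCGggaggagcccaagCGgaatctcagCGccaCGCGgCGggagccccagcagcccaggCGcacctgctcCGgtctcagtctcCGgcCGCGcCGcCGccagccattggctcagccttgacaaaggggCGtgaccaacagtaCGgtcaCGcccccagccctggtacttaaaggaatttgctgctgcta
Zeb2: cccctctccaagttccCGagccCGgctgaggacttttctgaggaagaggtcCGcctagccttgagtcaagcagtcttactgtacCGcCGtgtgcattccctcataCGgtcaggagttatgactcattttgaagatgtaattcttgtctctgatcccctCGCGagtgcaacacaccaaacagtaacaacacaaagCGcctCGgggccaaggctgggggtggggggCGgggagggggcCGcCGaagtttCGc

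The richest of these windows in CpG belonged to a gene without a peak. Snai1 had 27 CpG in 250 bases and a G+C content of 70.0%, a CpG count reached by 11.1% of 21044 promoter windows of protein-coding genes. The Tfap2a window had 10 CpG (G+C 47.6%), and its second listed start also had 10 (G+C 60.4%). Tfap2b had 5 CpG (G+C 46.4%), fewer than the median of 10 over all windows. The 4 Zeb2 windows had 14, 9, 6 and 6 CpG, and 2 of them overlap each other. The window shown is the one with 14, and the one before the gene's outer end had 9, fewer than Tfap2a.

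Peaks covered all 250 bases of both Tfap2a windows and of the Tfap2b window, and none of the Snai1 or Zeb2 windows. Of all windows 8.11% overlapped a peak at least in part, and the share covered whole was not counted. Over all genes the share of windows with a peak was 1.41% at 0 to 4 CpG, 7.67% at 5 to 9, between 11.1% and 13.2% from 10 to 29, and 15.9% at 30 or more. Windows under a peak had a median of 17 CpG (quartiles 10 and 24) and the others 9. Thus the Tfap2b window lay below the lower quartile of marked windows and the Snai1 window above their upper quartile. Of the 2343 windows with at least as many CpG as Snai1, 351 (15.0%) overlapped a peak, so most windows of this kind had none. The starts compared differ in place: the Snai1 window lies before the gene's outer end, whereas the listed start of Tfap2b lies 3146 bp, those of Tfap2a 3318 and 4443 bp, and that of the Zeb2 window shown 7165 bp inside the annotated gene. The sequence before the outer ends of the AP-2 genes was not compared. The window is short beside the Tfap2a peak, and CpG further into that peak were not counted.

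**Figure D1:**
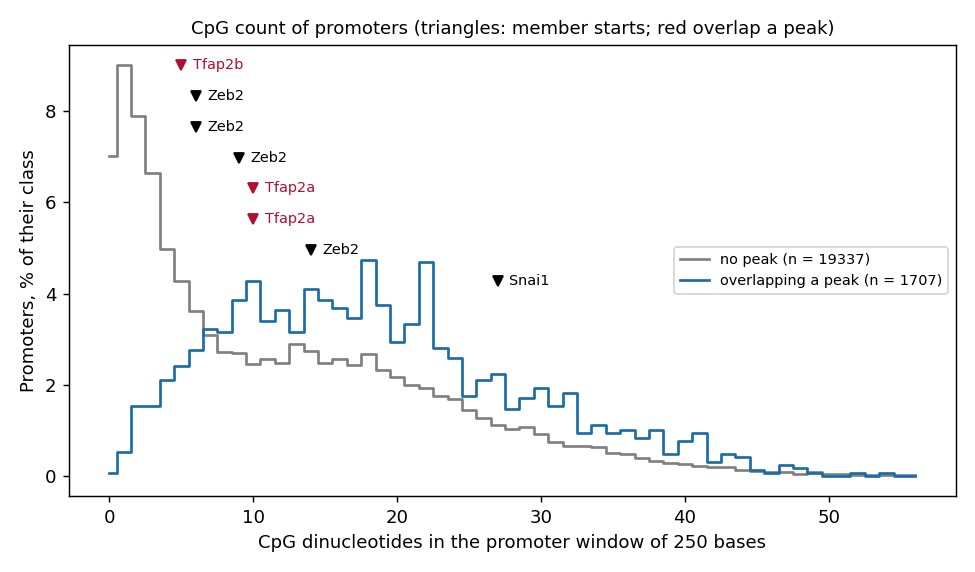
The number of CpG dinucleotides in the 250 bases before each annotated start (x axis) is plotted against the percentage of promoter windows of each class (y axis), for windows overlapping a Suz12 peak (blue) and not (grey). Triangles mark the CpG count of each member start, red where a peak overlaps it, and their height has no meaning; Snai1, with 27 CpG and no peak, stands to the right of Tfap2a (10) and Tfap2b (5).

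Binding sequences of the factors themselves were searched in the same windows. The E-box bound by Snail and ZEB proteins, CAGGTG on either strand, occurred once in the Snai1 window and in no window of Tfap2a, Tfap2b or Zeb2, and 17.0% of all windows held it. The AP-2 sequence GCCNNNGGC, which reads the same on both strands, occurred once in the Snai1 window and once in each of the overlapping Zeb2 windows, against 16.5% of all windows. Among windows overlapping a peak the shares were higher, 22.1% for the E-box and 25.9% for the AP-2 sequence. Neither sequence was found in the windows of the AP-2 genes. These are matches of letters and were not tested as binding sites.

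Tfap2a, which specifies early neural crest and surface ectoderm, carried the widest peak among these genes. The gene lies at chr13:40713802-40738238 on the minus strand (24437 bp). Its start peak, chr13:40727494-40739133, was 11640 bp wide and ranked 26th in width among 3373 peaks, whose median was 1849 bp. It began 895 bp before the gene and reached 10744 bp into it, across both listed starts. Its score was 3100, a value shared by 325 peaks and exceeded by 30, so its rank by score carries little information. Peaks covered 44.0% of the gene. Among 816 genes with a peak and 0.5 to 2 times its length the median was 5.67%, and 13 of them (1.59%), Tfap2a included, had at least as much covered.

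The second Tfap2a peak lay beyond the far end of the gene. It ran from 40708236 to 40711455 (3220 bp, score 1125) and ended 2347 bp from the gene, just inside the limit of 2.5 kb. The next peak out, from 40703745 to 40705780 (2036 bp, score 527), lay 8022 bp away and was not counted. These outer peaks were 2456 bp apart and became 1 domain of 7711 bp when peaks within 3 kb were joined. Between the start peak and the outer peaks 16039 bp were without a peak. No other gene lay within 2.5 kb of the outer peak. The start peak also covered the whole of Gm26688, a long non-coding RNA gene of 7355 bp inside Tfap2a, and the list cannot assign the signal to one or the other.

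Tfap2b, the AP-2 factor of sympathetic neurons, kidney and the face, had more and narrower peaks. It lies at chr1:19208908-19238845 on the plus strand (29938 bp). The first peak, from 19208686 to 19212359, was 3674 bp wide with a score of 1769, covered the annotated start and was wider than 87.4% of all peaks. The second, 19213770 to 19214705, was 936 bp wide with a score of 241. The other two lay at the opposite side of the gene. One ran from 19233616 to 19235952 (2337 bp, score 553) and was classed as interior, 2893 bp from the far end. The last, 19236314 to 19237177, was 864 bp wide with a score of 238 and lay 1668 bp inside the far end.

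The 4 Tfap2b peaks thus formed a pair at each side. The gap within a pair was 1411 bp at the start and 362 bp at the far side, and 18911 bp without a peak separated the pairs. Joined, they gave domains of 6020 bp and 3562 bp. Of 820 genes with a peak and similar length, 7 (0.854%) had 4 or more peaks, Tfap2b included, and the median was 1. Peaks covered 25.3% of Tfap2b against a median of 4.94% in those genes, and 29 of the 820 (3.54%) had at least as much covered. These values lean on low-scoring peaks: 1 peak and 11.5% covered were left at or above the median score, and 2 peaks and 19.3% with at least double the lowest score. At its start Tfap2b had a narrower and lower-scoring peak than Tfap2a (3674 against 11640 bp).

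Peaks at both ends, a trait counted only after the data were seen, were rare among long genes. Of 9975 protein-coding genes of at least 20 kb, 43 had a peak within 2.5 kb of each end, or 0.431%. These were 3.1% of the 1386 such genes with a peak at either end. Tfap2a and Tfap2b were both among the 43. Of the 5 members of that length, these 2 had both ends marked, Zeb1 had 1 end marked, and Zeb2 and Ets1 had neither. By covered share Tfap2a ranked 4th and Tfap2b 8th of the 43 genes, whose median was 6.36%. The 2 far-end peaks lay differently, beyond the gene at Tfap2a and inside it at Tfap2b. With the limit at 1 kb neither gene counted as marked at both ends, and under each of the score minimums 1 of them did, since the far-end peak of Tfap2b scored 238.

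A start peak, like a far-end peak, was shared by the marked members of known strand. Of the 4 members for which the promoter table gives a strand (Snai1, Zeb2, Tfap2a and Tfap2b), 2 had a peak within 2.5 kb of the start, against 9.66% of 17273 such genes. In both, the peak overlapped the outermost annotated start and every start listed.

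**Figure D2:**
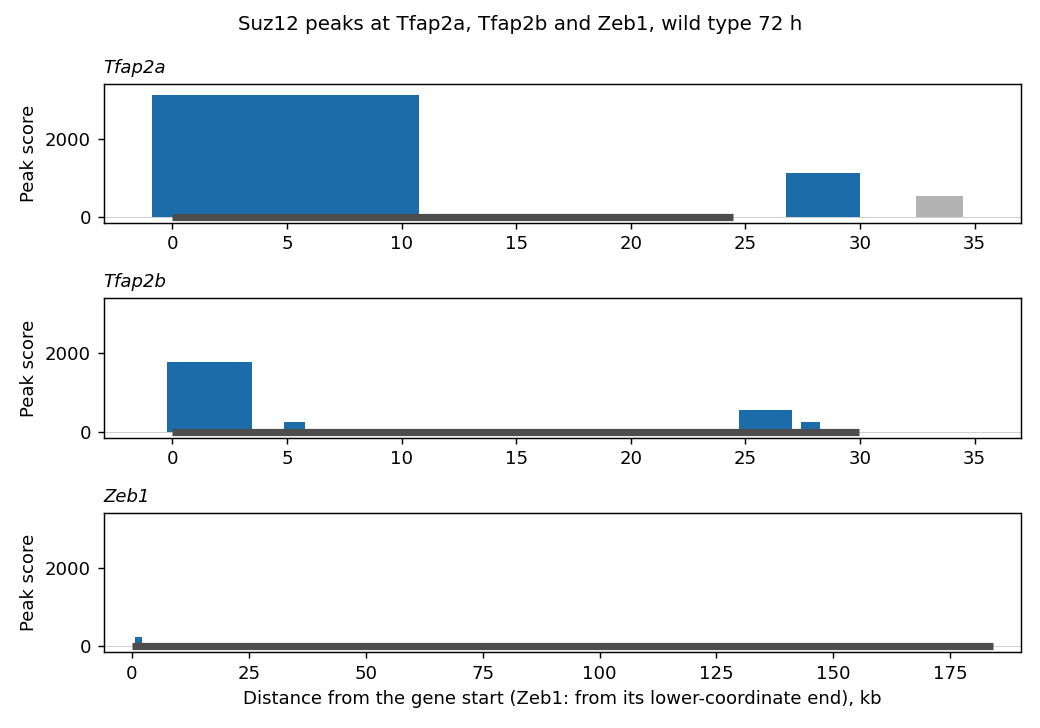
Suz12 peaks along Tfap2a, Tfap2b and Zeb1, with distance in kb on the x axis (from the gene start, or for Zeb1 from its lower-coordinate end) and the deposited peak score on the y axis; the dark line is the gene, blue blocks are peaks within 2.5 kb of it and the grey block is the peak 8022 bp beyond Tfap2a. The start peak of Tfap2a spans 11640 bp at a score of 3100, Tfap2b has a pair of peaks at each side, and Zeb1 has 1 peak of score 250 at the left edge.

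Zeb1, a repressor of the E-cadherin gene with a broad role in EMT, had 1 peak of low score. It spans chr18:5591327-5775468 (184142 bp), and its only peak, 5592058 to 5593512, lay wholly inside the gene, 731 bp from the lower-coordinate end. The peak was 1455 bp wide and scored 250, below the medians of all peaks (1849 bp and 572). It was wider than 32.2% of peaks and scored above 20.9% of them. It covered 0.790% of the gene, where 554 genes with a peak and similar length had a median of 1.06%, and 359 of these (64.8%) had at least as much covered. The peak shared 380 bp with Gm10125, a long non-coding RNA gene whose end overlaps that of Zeb1, so here too the signal could belong to either gene. With peaks of at least double the lowest score (2438 of 3373) Zeb1 had none.

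Zeb2, the paralogue of Zeb1 and an early factor of crest and neural differentiation, had no peak in or near its 133931 bp (chr2:44983512-45117442, minus strand). The nearest peak lay 425875 bp away, and 30.4% of protein-coding genes were as far or further from one. That peak was 1104 bp wide with a score of 324 and had Gtdc1 as its nearest gene. The ZEB pair therefore differed in the presence of a peak, but the peak at Zeb1 was among the lower-scoring ones and signal below the authors' threshold at Zeb2 could not be seen.

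The Snail genes, which switch off epithelial genes during EMT, had no peak. Snai1 (chr2:167538195-167542814, plus strand, 4620 bp) had no peak nearby, and 35.2% of protein-coding genes were as far or further from one. Snai2 (chr16:14705852-14709395, 3544 bp) lay 1177157 bp from the nearest peak, a peak of score 567 at Cebpd, and 11.1% of protein-coding genes were as far or further.

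Ets1, a factor of the cranial and cardiac crest and of lymphocytes, had no peak over its 121580 bp (chr9:32636241-32757820). The nearest lay 91105 bp away at its neighbour Fli1, an ETS factor of blood and endothelium. That peak, 32539921 to 32545136, was 5216 bp wide with a score of 3100, and covered the end of Fli1 that faces Ets1. The 2 ETS genes, 92809 bp apart and nearly equal in length (121229 bp for Fli1), thus differed in the presence of a peak.

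The members' relatives were compared by family. All 5 AP-2 genes had a peak, beside 13.1% of all protein-coding genes. Tfap2c, a factor of trophoblast and germ cells, had a peak of 7046 bp with a score of 3100 over 52.1% of its 12945 bp. Tfap2e had one of 5495 bp and 3100 at its start, covering 23.7%. Tfap2d, which lies 34960 bp from Tfap2b with no peak between the genes, had one of 2027 bp and 1267 within 2.5 kb of its start, covering 2.86% of 70927 bp. None of these 3 genes had more than 1 peak, so the paired ends of Tfap2a and Tfap2b were not seen in the rest of the family. The start, or the lower-coordinate end at Tfap2c, was marked in each.

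Among Snail relatives the split ran between the Snail genes and the Scratch genes. Snai1, Snai2 and Snai3 had no peak. Scrt1 and Scrt2, neuronal repressors with the same kind of zinc fingers, both had one: at Scrt1 a peak of 8678 bp with a score of 3100 covered the whole gene, and at Scrt2 a peak of 2534 bp with a score of 1100 covered 17.8%. In the ETS family, 6 of 26 genes had a peak, namely Fli1, Fev, Etv4, Elf4, Etv2 and Erg. Fev, the ETS factor of serotonin neurons, was covered whole by a peak of 6668 bp with a score of 3100. Etv4 scored 1854, Elf4 (an interior peak) 1346 and the blood and endothelial regulator Etv2 806. Erg, close kin of Fli1, had a peak of 1018 bp with a score of 179. As at Ets1, no peak was found at Ets2, Etv1, Etv3, Etv5, Etv6, Elk1, Elk3, Elk4, Elf1, Elf2, Elf3, Elf5, Ehf, Spi1, Spib, Spic, Spdef, Gabpa or Erf. Of the 31 relatives 11 (35.5%) had a peak, beside 13.1% of all protein-coding genes. Their median covered share was 17.8%, against 4.35% over all genes with a peak. Those shares were not matched for gene length, which matters because short genes tend to have larger ones. Genes with a peak and a length similar to Snai2 (3544 bp) had a median of 47.4%, and those similar to Tfap2a (24437 bp) 5.67%.

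**Figure D3:**
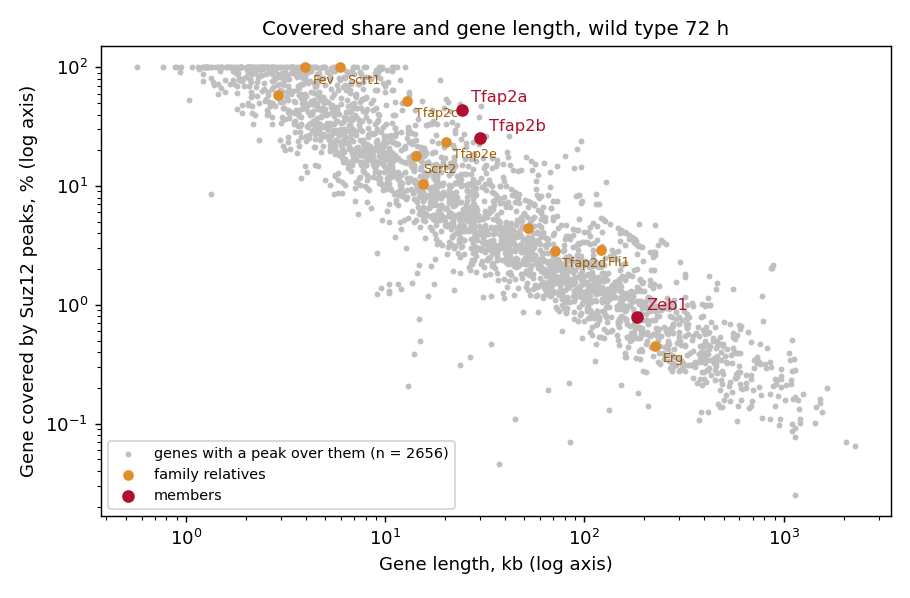
Gene length in kb (x, log axis) against the percentage of the gene covered by Suz12 peaks (y, log axis) for the 2656 protein-coding genes with a peak over them (grey), with family relatives in orange and the 3 marked members in red. Tfap2a (44.0%) and Tfap2b (25.3%) lie high among genes of their length, and Zeb1 (0.790%) lies within the cloud.

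Genes whose covered length was closest to that of a member were sought among genes with a peak and a length within 10%, over the gene widened by 2.5 kb at each end. For Tfap2a (11794 bp covered, 122 candidates) these were Lhx9, a factor of limb and brain, with 11258 bp, and Zic4, a factor of cerebellum, with 14110 bp in 7 peaks. For Tfap2b (7811 bp, 128 candidates) they were the glutamate receptor gene Grin1 (8184 bp) and Gdnf (7412 bp), a growth factor for enteric neural crest. For Zeb1 (1455 bp, 82 candidates) they were Osbpl6 (1425 bp) and Brinp1 (1401 bp). This likeness is one of covered length in 1 library.

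Among 25 other regulators of the neural crest, 20 (80.0%) had a peak, beside 3 of the 7 members and 13.1% of all protein-coding genes. Those with long covered lengths included Pax7 (14040 bp), Pax3 (6947 bp in 4 peaks) and Zic1 (5093 bp), all factors of the neural plate border, and Dlx5 (4194 bp) and Msx1 (3975 bp). The 5 without a peak were Ednrb and Mitf, which act in melanocytes, and Id2, Id3 and Myc. No gene of this list of at least 20 kb had both ends marked. This list and those in the next paragraphs were chosen with earlier results of these data known. Their shares of genes with a peak were not matched for gene length.

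Of 17 other EMT regulators 9 (52.9%) had a peak, beside 13.1% of all protein-coding genes. Lbx1 (4158 bp covered), Prrx1 (3818 bp), Foxc1 (3240 bp), Tgfb1 (2757 bp) and Foxc2 (2725 bp) were among those with the longest covered lengths. The basic helix-loop-helix factor Twist1, which stands on both lists, had a peak of 2337 bp with a score of 773 over 58.7% of the gene. Genes without a peak included Klf8, Sox4, Tcf12 and Tcf3.

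Genes of the epithelial state, several of them repressed by Snail and ZEB proteins, had a peak in 18 of 30 cases (60.0%). The share over all protein-coding genes was 13.1%. The marked epithelial genes included Esrp1, a splicing factor of epithelia (peak of 6143 bp, 3100), the claudin gene Cldn7 (3014 bp, 2950), Grhl2 (3448 bp, 3190) and Ovol2 (4205 bp, 3100), which uphold epithelial identity, Epcam (2606 bp, 1861) and Esrp2 (2512 bp, 677). Cdh1, the E-cadherin gene and the best-known target of the Snail and ZEB repressors, had a peak of 1951 bp with a score of 634 at its lower-coordinate end. It is named after its values were seen. Cdh3, Cldn6, Grhl1 and Grhl3 were among those without one.

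Mesenchymal and migration genes had a peak in 5 of 22 cases (22.7%), beside 13.1% of all protein-coding genes. The marked ones were Pdgfra (peak of 7604 bp, 3100), Mmp9 (interior, 734), Cdh11 (1087), Cxcr4 (1145) and Cdh7 (161). Acta2, Cdh2, Cdh6 and Col1a1 had none, and neither did Vim and Fn1, named after their values were seen. The median covered share was 6.43% for the marked epithelial genes (range 0% to 100%) and 8.65% for the 5 marked mesenchymal genes. The latter ranged from 0.537% at Cdh7 (163036 bp) to 42.3% at Cxcr4 (4101 bp). Gene length was not matched, so the medians cannot be compared directly. The lists were not tested against each other.

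No peak lay within 2.5 kb of the 6 microRNA genes that target Zeb1 and Zeb2. These loci are only 68 to 90 bp long, and the share of all microRNA genes with a peak was not counted. Whether the absence is unusual therefore cannot be said. The cluster of Mir200a, Mir200b and Mir429 lay closest, with 18146 bp from Mir429 to a peak of score 244 at Ttll10. Mir200c and Mir141 lay 278155 and 278560 bp from a peak, and Mir205 353376 bp. The starts of their longer primary transcripts were not examined.

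**Figure D4:**
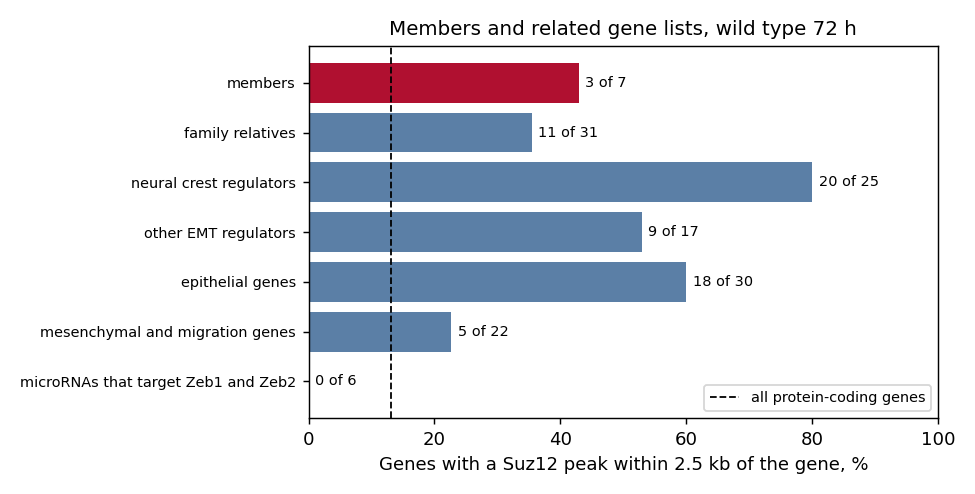
Percentage of genes with a Suz12 peak within 2.5 kb (x axis) for the 7 members (red) and each related list (blue), with counts beside the bars and the share over all protein-coding genes, 13.1%, as a dashed line. The members (3 of 7) lie below the neural crest regulators (20 of 25) and above the mesenchymal and migration genes (5 of 22). The dashed line is not a share for the microRNA genes, which are not protein-coding.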

How the data were processed

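Suz12 chromatin immunoprecipitation sequencing was represented by 1 peak list, from the wild-type 72 h library. Bowtie and MACS were used by the authors with build GRCm38 (mm10), per the submitters' processing notes. What versions, settings or control were used, and whether libraries were pooled, is not given in the sources used here. Deposited by the authors were 3373 peaks, each with start, end and a score from 150.3 to 3233 of unstated scale, by MACS convention a scaled logarithm of the p-value. Scores were used only to describe, rank and filter peaks. The list gives no reads, so depth is unknown and an unmarked gene may hold signal below the threshold.

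Peaks were placed on genes of a RefSeq table (GRCm38.p6), chromosomes 1 to 19 and X, with Python 3.11.15 and pandas 2.3.3. Distances are differences of coordinates, and peak starts are given 1-based. The table gives gene ends but no exons or introns, so these were not told apart. Strand came from the RefSeq promoter table, which matched 17273 protein-coding genes and 4 of the 7 members. The overlap counts were checked on made-up genes with known peaks. Named genes are the members, their family relatives, genes within 2.5 kb of a member's peak, up to 6 marked (by covered length) and 4 unmarked genes (alphabetically) of each other list, and the 2 genes nearest in covered length to each marked member. Exceptions are stated where they occur, and a few genes that this rule would name are not reported here. Members and lists were chosen with earlier results of these data known. Alternatives were other distances, 2 score minimums, joined peaks, classing by midpoint and a widened gene.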

Additional observations from a re-analysis of the deposited data

How the results depend on the processing

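The 3 marked members, Tfap2a, Tfap2b and Zeb1, were the same with peaks over the gene body only, within 1 kb and within 5 kb, and Snai1, Snai2, Zeb2 and Ets1 had 0 peaks under every alternative run. The peaks nearest to these unmarked genes lay 91105 bp or more away, so no setting used could have given them one. Of 79 alternative values 61 stayed within 1.5 times the main count or within the binomial interval of the covered share, and 18 moved. That interval treats the bases of a gene as independent although peaks are contiguous, so it served as a labelling rule only. Many of the 61 were zeros at Snai1, Snai2, Zeb2 and Ets1, fixed by the distance of their nearest peaks. The rule also counted as unmoved the fall from 3 to 2 marked members under each score minimum. Zeb1 fell to 0 peaks and 0% covered when only the 1687 peaks reaching the median score were kept, and with peaks of at least double the lowest score (2438 peaks). Tfap2a had 1 peak over the body and 1 within 1 kb, since its outer peak lies 2347 bp away, and 40.1% covered in the widened gene. Tfap2b had 1 peak at or above the median score (11.5% covered), 2 with double the lowest score (19.3% covered), 2 after joining, and 22.4% covered in the widened gene. Of the 7 member peaks 5 were at a gene end by overlap and 3 by midpoint, because the midpoint of the widest Tfap2a peak lies inside the gene and that of the outer peak beyond 2.5 kb. Members marked at both ends, a count added after seeing the data, were 2 in the main result and within 5 kb, 0 over the ends themselves, 0 within 1 kb, and 1 under each score minimum. No paired analysis was possible because each group has 1 library and only 1 was analysed. Depth is unknown, so the lowest signal that could have been called at an unmarked gene cannot be given.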

Other observations

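Among the 43 protein-coding genes of at least 20 kb with a peak near each end, the 3 with a larger covered share than Tfap2a were Prdm8 (54.2%), a zinc-finger factor of neurons, Prdm12 (50.8%), a factor of pain-sensing neurons, and Zic4 (48.9%). Foxo6 (33.1%), Espn (26.3%) and Sim2 (26.2%) lay between Tfap2a and Tfap2b. Others on the same list were the transcription factor genes Pax2 (20.6%), Nfix (23.9%), Casz1 (4.06%) and Dmrt1 (1.71%), and the channel or receptor genes Kcnk3 (7.86%), Kcnk12 (7.45%), Scn8a (1.19%) and Grik4 (0.999%). These genes were named after their values were seen.

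Most long genes with a far-end peak had no start peak, yet a start peak was more frequent among them than among all long genes. Of 7912 genes of at least 20 kb and known strand, 955 (12.1%) had a peak within 2.5 kb of the start and 116 (1.47%) within 2.5 kb of the far end, and 31 of the 116 had both. Starts of neighbouring genes that lie near such far ends were not removed from these counts.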
